A study of Cristatella mucedo with 12 samples.

Results

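The statoblast gene cluster on contig 68 of the freshwater bryozoan Cristatella mucedo holds 5 neighbouring gene models that were abundant in statoblasts. A pair abundant in mature colonies lies 81143 bases beyond them, and the other models were near silent or expressed in both. The members of the cluster were all gene models on contig 68 lying within the 650000 bases from base 1600000 onward. This gave 36 of the 97 models on contig 68 and of the 35949 models in the table. The window was chosen by measured values, the far higher CPM of some of its models in statoblasts than in mature colonies, so the members are described in that contrast without a test. The contig's name gives its length as 2116876 bases and its coverage as 84-fold, so the contig ends inside the window, 71565 bases after the last model. Which assembly the contig belongs to is not stated in the sources at hand.

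Bryozoans are colonial animals that filter food from water with crowns of tentacles. Freshwater species also form statoblasts, dormant buds enclosed in a hard capsule, which develop inside the colony, outlast cold or drought and then germinate into a founding zooid. A dormant stage carries stored RNA, and germination brings the replacement of that store by the RNA of a growing animal.

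Polyadenylated RNA of wild-type animals of isolate SBPEP1 was counted in 12 bulk libraries. Statoblasts kept frozen were sequenced just after thawing (the freezer stage) and at day 2, day 4 and day 6 of differentiation in an aquarium at room temperature, with 1 library per stage. Adult colonies taken from a stream gave 8 libraries, 2 each of the edge zone and the central zone from one kind of dissection, and 2 each of the end part and the middle part of elongated colonies. The labels' protocols speak of 2 biological replicates, but no label ties a replicate to its own colony. The p-values here therefore reflect the scatter of these libraries alone, and whether it spans separate colonies is not known. Library totals were 4738221 to 7805888 counts for statoblasts and 14787598 to 26089274 counts for mature colonies. A floor of 3 counts therefore stood at 0.384 to 0.633 CPM (counts divided by the library total and scaled to a common sum) in statoblast libraries and at 0.115 to 0.203 CPM in mature libraries. The files do not pair nuclear identifiers with gene names. No function can be given for any member, and neither stages nor zones could be checked against marker genes. Members are numbered here from 1 to 36 along the contig.

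By position and level the window fell into 4 stretches, which were set after the values had been seen. Models 1 to 17, between bases 1617368 and 1752211, were near silent. Models 18 to 27, between bases 1762311 and 1921195, were mostly expressed in every library. Models 28 to 34, between bases 1923401 and 1955166, held the statoblast block. After a gap of 81143 bases without a model, models 35 and 36, between bases 2036310 and 2045311, formed a pair that was abundant in mature colonies. In all, 10 of the 36 members had no count in any library, against 17.1% of all models in the table.

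**Figure D1:**
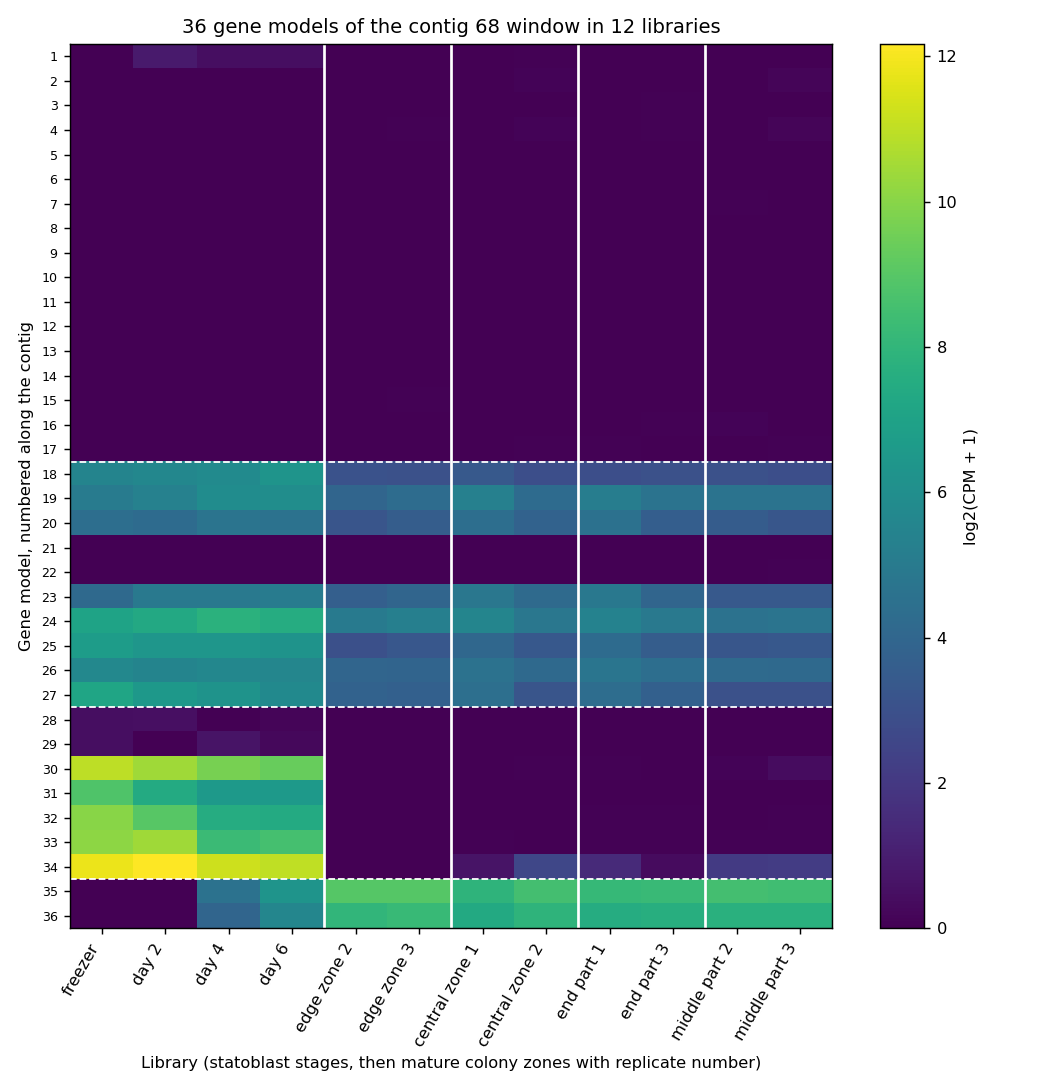
Level of each of the 36 members (rows, numbered along the contig) in each of the 12 libraries (columns) as log2(CPM + 1), with dashed lines between the 4 stretches. Models 30 to 34 are bright in the 4 statoblast columns and dark in mature colonies, models 35 and 36 are dark in the freezer and day 2 columns and bright in mature colonies, and models 1 to 17 are dark throughout.

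The statoblast block was dense and short. Models 30 to 34 lay within 18716 bases, with spans of 366 to 3634 bases from the first to the last base of a model. The gap was 86 bases between models 30 and 31, 746 bases between 31 and 32, and 5 bases between 32 and 33. Model 34 followed after 7399 bases. None of the 5 overlaps another listed model. Together they held 0.817% of all counts just after thawing, 0.805% on day 2, then 0.383% and 0.335%. Over all 8 mature libraries they held 310.5 counts, and none in the edge zone.

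Model 34 (g24638, bases 1953049 to 1955166) held the most counts of the block. Its level was 3591 CPM just after thawing, 4603 CPM on day 2, 2421 CPM on day 4 and 2066 CPM on day 6, set beside 0 to 4.93 CPM in mature libraries, with a median of 1.17 CPM. The lowest statoblast library was thus far above the highest mature library. Pooled over libraries, the ratio of statoblast to mature CPM was 1829.9, with a 95% counting interval of 1631.8 to 2059. In bulk libraries fewer cells of a type and less RNA per cell cannot be told apart.

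Model 30 (g24634, bases 1936451 to 1940084) came next, with 1983 CPM just after thawing and 1365, 827 and 643 CPM on the later days in order. It had 9.75 counts in mature colonies, of which 6 lay in middle part replicate 3. Each later stage was lower than the one before it.

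Model 33 (bases 1945284 to 1945649) is the shortest of the block and had 1105 CPM just after thawing, 1384 CPM on day 2 and then 310 and 380 CPM. It had 4.5 mature counts. Model 32 (bases 1942178 to 1945278) stood at 1034.5, 518, 182 and 171 CPM over the same stages, with 2.5 mature counts. The ratio of statoblast to mature CPM for model 32 was 39955, with a counting interval of 11058 to 329967. Although they lie 5 bases apart, model 33 was higher at day 2 than in the freezer library, while model 32 was lower.

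Model 31 (bases 1940171 to 1941431) had 455 CPM just after thawing, then 175, 90.9 and 95.9 CPM. No mature library held a count of it, so with 3 counts per library as the floor the statoblast level was at least 1466-fold higher when averaged and at least 448-fold in the lowest library. The block thus fell short of silence in mature colonies mainly through model 34, which gave 293.75 of its 310.5 mature counts. Models 28 and 29, at the start of the block, had 5 and 6.5 counts over the 4 statoblast libraries and none in mature colonies, and were at or under the floor in every library.

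Per kilobase of span, introns included, model 33 averaged 2172 CPM over the 4 statoblast libraries, against 1497 CPM for model 34, 331 CPM for model 30, 162 CPM for model 31 and 154 CPM for model 32. The order by span thus differed from that by counts. Exons are not resolved in the table, so the level per length of transcript is not known.

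Part of these counts held fractions. These can arise where a read is divided among several places or models, but how reads were shared out is not stated. Of the 13 members with at least 50 counts in each statoblast library, 6 had a fraction in all 4, against 6.39% of all 7010 such models in the table. They were models 25, 27, 30, 31, 32 and 34, of which only model 25 overlaps another model. Their levels are uncertain to the extent that near copies elsewhere took or gave reads, which was not tested.

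Across the window, 10 members stood higher in every statoblast library than in every mature library, and 2 stood lower in every one, of 26 with a count. The same non-overlap was seen for 20.3% (higher) and 23.8% (lower) of all models with a count. This contrast chose the window, so nothing is read from these counts. Over all 17896 models tested, the edgeR quasi-likelihood test called 28.7% higher in statoblasts and 48.2% lower at an adjusted p under 0.05, that is 5139 and 8622 models, and with library totals as the only scaling 6853 and 7218.

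The next question was how the members moved as statoblasts differentiated. The block was lower at day 6, but not evenly. At day 6 model 32 stood at 0.165 of its freezer level and model 31 at 0.211, against 0.324 for model 30, 0.343 for model 33 and 0.575 for model 34. Summed over the block, the level was 8169.8 CPM just after thawing, followed by 8046, 3832 and 3355 CPM. The 61 models of contig 68 outside the window summed to 716, 989, 1146 and 1634 CPM over the same stages, so their sum moved the other way. How many of the 61 rose was not counted. Each stage is 1 library, so single steps have no replicate check.

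Between the freezer library and day 2, model 31 stood at 0.385 of its level (95% counting interval 0.356 to 0.417) and model 32 at 0.501 (0.478 to 0.525). At the same step model 33 stood at 1.25 times its freezer level (1.21 to 1.30) and model 34 at 1.28 times (1.26 to 1.31). Between day 2 and day 4 all 5 were lower, at 0.224 of the day 2 level for model 33 and 0.526 for model 34. From day 4 to day 6 the ratios ran from 0.777 for model 30 to 1.22 for model 33, with 1.06 (0.942 to 1.19) for model 31. Intervals cover counting error only.

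A change of at least 2-fold between stages was counted for models with at least 50 counts in 1 of the 2 libraries. Of the 15 such members, 5 were lower by that much at day 6 than in the freezer library, where 7.33% of 9493 models were. They were models 27, 30, 31, 32 and 33. Higher by that much were 2 members, models 35 and 36, against 19.6% of all. At the step from day 2 to day 4 the count was 2 lower and 2 higher, against 2.16% and 8.52% of 8489 models.

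**Figure D2:**
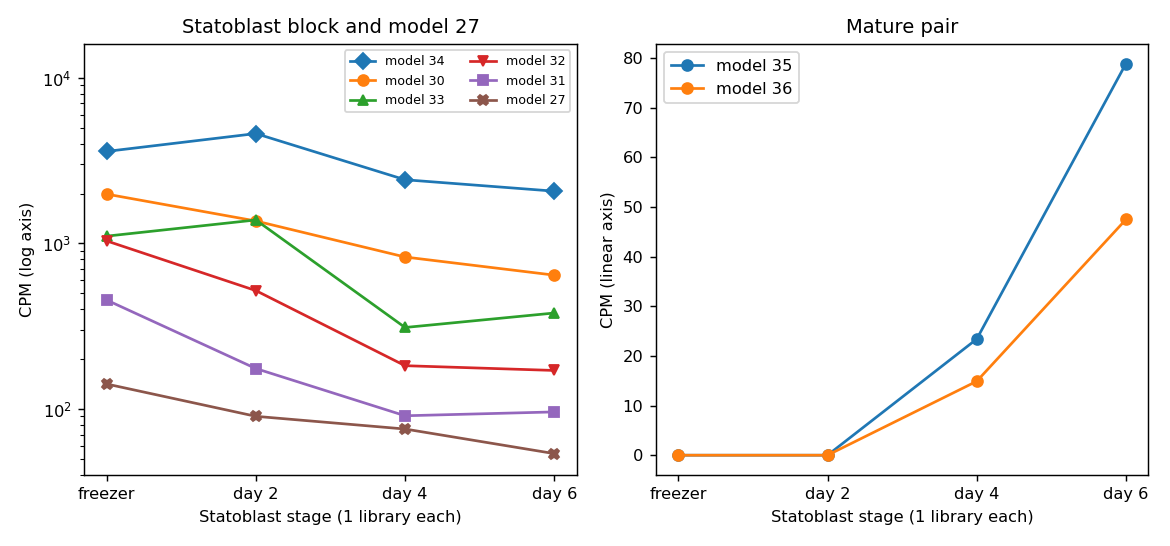
Level in CPM at each statoblast stage (1 library each) for models 27 and 30 to 34 on a log axis (left) and for models 35 and 36 on a linear axis (right). Models 33 and 34 are higher at day 2 than in the freezer library, the other 4 on the left are lower there, and models 35 and 36 are at 0 until day 2 and reach 78.9 and 47.5 CPM at day 6.

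A linear slope per day over the 4 stages was tested with edgeR. Of the 36 members 13 passed the filter, which asks for counts in all stages. Called lower with time were 4 of them and called higher 0, where 4.17% of the 9887 models tested fell and 5.94% rose. An unadjusted p under 0.05 was found for 8 of the 13 (28.3% of all models tested). The DESeq2 Wald test, without that filter, called 5 of 18 members lower and 0 higher. Of all 21059 models it called 658 lower and 1065 higher. The median slope of the 13 was -0.07 per day on the log2 scale, against 0.00 for all models tested. The course over stages was known when the window was chosen.

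The steepest slope was that of model 32, at -0.46 log2 units per day (SE 0.06, edgeR adjusted p = 0.00671). Model 31 fell by 0.38 per day (SE 0.06, edgeR adjusted p = 0.0118) and model 30 by 0.28 per day (SE 0.04, edgeR adjusted p = 0.00954). These 3 adjoin each other within the block. Model 33 had a slope of -0.34 (edgeR adjusted p = 0.056) and model 34 one of -0.17 (edgeR adjusted p = 0.113), and neither passed. In a fit of day 4 and day 6 against the earlier stages, model 33 did pass (edgeR adjusted p = 0.00709) and model 31 did not (0.0545).

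Outside the block, model 27 (bases 1900016 to 1921195) fell too. Its level was 141 CPM just after thawing and 90.2, 75.6 and 53.7 CPM on the later days, a slope of -0.22 per day (SE 0.04, edgeR adjusted p = 0.0183). It borders the block but was present in every mature library as well, at 7.12 to 20.5 CPM. Without the freezer library none of the 4 slopes passed (edgeR adjusted p = 0.0921 to 0.241, with 4 calls over all models). Without day 6, models 30 and 27 did not pass (0.0519 and 0.134).

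With these unequal slopes the make-up of the block shifted. Model 34 gave 44.0% of the counts of models 30 to 34 just after thawing (95% Wilson interval 43.5 to 44.4), 57.2% on day 2 (56.7 to 57.7), then 63.2% (62.5 to 63.8) and 61.6% (61.0 to 62.2). Model 32 gave 12.7%, 6.44%, 4.76% and 5.09% over the same stages. Model 33 peaked at day 2 with 17.2% (16.8 to 17.6) and gave 8.09% at day 4. Model 30 stayed between 17.0% and 24.3%.

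**Figure D3:**
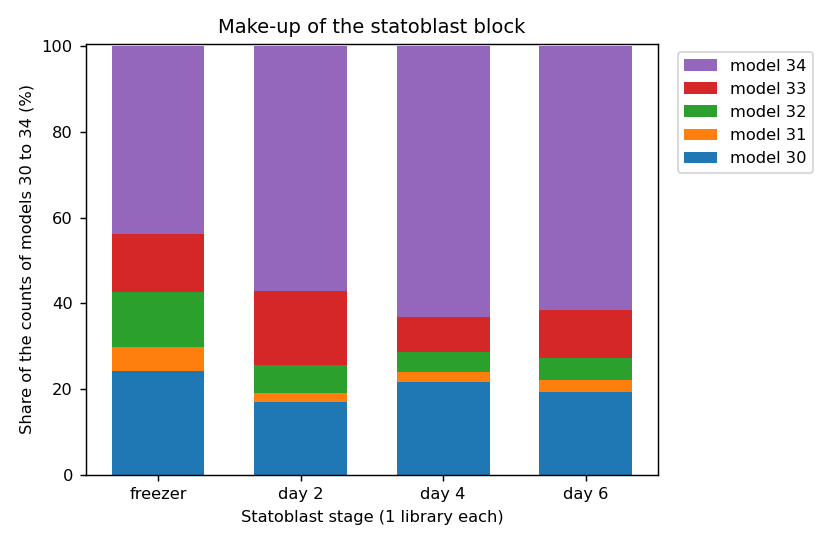
Share in percent of the counts of models 30 to 34 that each model gave at each statoblast stage (1 library each, bars stacked to 100%). The share of model 34 is 44.0% in the freezer library and 63.2% at day 4, while that of model 32 is 12.7% and 4.76%.

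Models 35 and 36 at the far end of the window had the reverse course. Model 35 (g24639, bases 2036310 to 2038605) had no count in the freezer library or on day 2, then 23.4 CPM on day 4 and 78.9 CPM on day 6. Model 36 (g24640, bases 2038624 to 2045311) likewise had no count at first, then 14.9 and 47.5 CPM. They start 81143 bases beyond a block that was at its highest while they were at 0.

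Over a floor of 3 counts, model 35 was at least 148-fold higher at day 6 than in the freezer library and model 36 at least 88.7-fold. From day 4 to day 6 the ratios were 3.37 (counting interval 2.78 to 4.12) and 3.19 (2.50 to 4.10). Both failed the filter of the slope test, which needs counts in every stage. Without a filter they were the 2 of 18 members called higher with time (edgeR adjusted p = 0.00457 and 0.00488). Of all 21059 models in that fit, 998 were called higher and 293 lower. In mature colonies model 35 averaged 364.7 ± 93.8 CPM and model 36 219.9 ± 41.7 CPM (SD, n = 8 libraries of 4 groups). At day 6 the pair was thus still below every mature library.

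The pair kept a near constant proportion. Only 18 bases separate the models, and model 35 held 58.7% to 66.1% of their joint counts in the 10 libraries that had any. Reads in both may have been partly shared, since all 8 mature libraries held fractions for each. The share of all models with such fractions in mature libraries was not counted.

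Models 18 to 27 moved in both directions over the stages. Of these 10, 8 had at least 10 counts in some library, and models 21 and 22 had 0 and 1 count in all. Their summed level was 541, 514, 593 and 557 CPM over the 4 stages in order, against 106.3 to 200.5 CPM in mature libraries. Within this near level sum, model 27 stood at day 6 at 0.38 of its freezer level and model 25 at 0.739. Models 18, 19 and 23 stood at 1.79, 1.91 and 1.90 times their freezer level and model 24 at 1.39 times. Of these 6, model 27 was the one whose slope passed.

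Model 24 (bases 1833044 to 1839344) was the highest by counts, at 134, 162, 216 and 186 CPM over the stages and 22.7 to 45.1 CPM in mature colonies. Model 25 (bases 1841894 to 1882320) stood at 103, 82.6, 83.5 and 76.3 CPM, with 6.93 to 17.9 CPM in mature colonies, and overlaps model 26 by 1174 bases. Model 18 (bases 1762311 to 1790138) stood at 43.5, 48.8, 55.6 and 78.0 CPM, with 6.62 to 9.70 CPM in mature colonies. All 3, and model 27, were higher in each statoblast library than in any mature one.

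Pooled statoblast-to-mature ratios were 8.0 for model 25, 7.95 for model 18, 6.99 for model 27 and 5.47 for model 24. Models 26, 19, 20 and 23 lay closer to their mature level. Their ratios were 2.60 for model 26 (counting interval 2.43 to 2.78), 2.03 for model 19 (1.90 to 2.17), 1.69 for model 20 (1.53 to 1.86) and 1.67 for model 23 (1.53 to 1.82). These ratios and intervals use library totals, and the intervals cover counting error only. With TMM scaling the log2 fold changes were 0.83 for model 26, 0.47 for model 19, 0.19 for model 20 and 0.18 for model 23. Models 20 and 23 were thus much nearer to an equal level on that scale. For models 19, 20 and 23 the libraries of both sets overlapped. The slopes of models 18 and 19, at 0.14 and 0.17 per day, did not pass (edgeR adjusted p = 0.0852 and 0.062).

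Models 1 to 17 spread over 134844 bases and gave 31 counts in all 12 libraries together. No library held more than 4 counts of any of them, and 9 had none. Model 1 alone had counts in statoblasts, 9 over days 2 to 6. Just outside the window, the model that begins at base 1597435 and ends inside it averaged 19.5 CPM in statoblasts and 4.25 CPM in mature colonies, while the first member inside averaged 0.399 and 0.00606 CPM.

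Mature colonies allowed tests that had not chosen the window. The first asked how the colony edge differed from the centre. Model 34, the last of the statoblast block, was detected in every mature library except those of the edge. It had 0 counts in both edge libraries, against 15 and 101.75 counts in the central libraries, or 2.75 ± 3.08 CPM (SD, n = 2). The block as a whole had 0 counts at the edge, against 16 and 102.5 in the central libraries, nearly all of them from model 34. For its other models a difference was not detectable at this depth.

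Model 34 was called lower at the edge (edgeR adjusted p = 0.0067). With 0 counts at the edge it passed the filter only through the other zones, so it could be called only lower. The direction of this call was thus fixed before the test. Taking the floor of 3 counts per library, the edge was at least 23.3-fold lower than the central mean, which rests on replicate 2, and at least 4.79-fold lower than central zone replicate 1. The call was lost without edge zone replicate 2 (edgeR adjusted p = 0.0799), and adjusted p ran from 5.94e-19 to 0.0799 over 14 alternatives. In the middle part model 34 was detected at 3.26 and 3.51 CPM.

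The pair moved the other way and rose at the edge. Model 35 had 499.7 and 496.7 CPM at the edge, against 238.7 and 373.5 CPM in the centre. Its log2 fold change in the edgeR fit, which scales by TMM and not by library totals, was 1.07 (SE 0.30, edgeR adjusted p = 0.0201). With library totals as the only scaling, as in the CPM, it was 0.70 (edgeR adjusted p = 0.0487). Model 36 had 255.9 and 295.7 CPM at the edge, against 168.1 and 238.3 CPM in the centre. Its TMM-scaled log2 fold change was 0.81 with an SE of 0.28 (edgeR adjusted p = 0.0476). For each of the pair every edge library was above every central one. With 2 libraries per group an exact permutation test gives such an order a p of 0.333. Its share over all models was not counted.

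Both calls depended on single libraries. Without central zone replicate 1 or edge zone replicates 2 or 3, model 35 did not pass (edgeR adjusted p = 0.15, 0.146 and 0.0578). Model 36 kept its call in 6 of 14 alternatives, and with library totals as the only scaling its log2 fold change was 0.44 (edgeR adjusted p = 0.186).

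In all, 11 members passed the filter, of which 2 were higher and 1 lower at the edge, where 23.7% of 18085 models were called (12.8% higher and 10.9% lower). With library totals alone 1 was higher and 1 lower, and over all models 908 were higher and 3882 lower, against 2311 and 1979, as the median of all models moved from -0.01 to -0.42. The 8 tested models of the stretch 18 to 27 had log2 fold changes of -0.38 to 0.31, and none passed. The median of the 11 was -0.05.

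**Figure D4:**
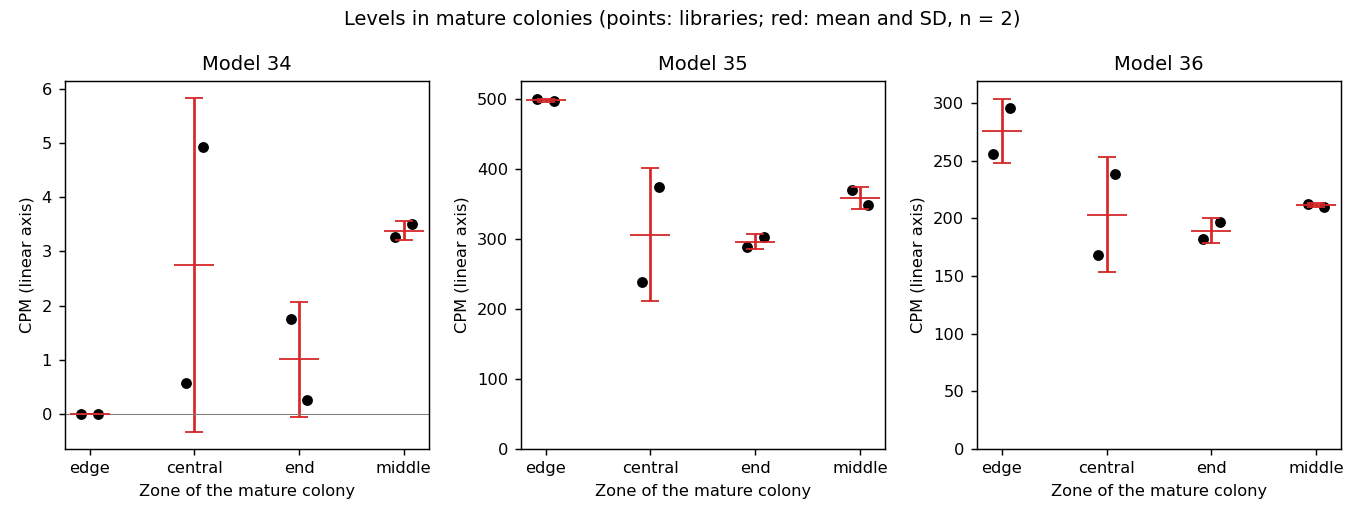
CPM of models 34, 35 and 36 in the mature libraries by zone, on linear axes (points are libraries, red bars the mean and SD, n = 2 per zone). Model 34 is at 0 in both edge libraries and at 3.26 and 3.51 CPM in the middle part, while model 35 is highest at the edge, at 499.7 and 496.7 CPM.

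The second comparison set the end part of elongated colonies against the middle part. No member passed in edgeR, where 0.343% of 18085 models did. An unadjusted p under 0.05 was found for 5 members (12.9% of all models). The DESeq2 Wald test called 1 of 23 members higher, model 23, where 272 of 28161 models were called higher. Model 34 had 1.76 and 0.262 CPM at the ends, against 3.26 and 3.51 CPM in the middle (log2 fold change -1.88, SE 0.87, edgeR adjusted p = 0.385). Both end libraries were below both middle libraries, an order whose share over all models was not counted.

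Model 23 (bases 1830094 to 1831981) had 28.6 and 14.6 CPM at the ends, against 9.53 and 9.46 CPM in the middle (log2 fold change 1.12, SE 0.31, edgeR adjusted p = 0.179). Model 27 had 19.1 and 12.2 CPM at the ends, against 7.23 and 7.12 CPM in the middle (log2 fold change 1.07, SE 0.34, edgeR adjusted p = 0.23). End part replicate 1 was above replicate 3 for both. Models 35 and 36 had log2 fold changes of -0.33 and -0.20, with each end library below each middle library. The share of all models in that order was not counted. The median of the 11 members tested was 0.38, against 0.01 for all models.

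Whether the dissections differed was tested as a contrast of contrasts, the change from centre to edge less the change from middle to end. No member passed in edgeR, where 2.18% of 18085 models did, while 6 had an unadjusted p under 0.05 (26.4% of all models). The DESeq2 Wald test called 2 of 23 members, where 1512 of 28161 models were called. The difference was 1.40 for model 35 (SE 0.42, edgeR adjusted p = 0.0783) and 1.01 for model 36 (SE 0.39, edgeR adjusted p = 0.129). It was -7.05 for model 34 (SE 2.62, edgeR adjusted p = 0.123), a fitted value that depends on the prior count because the edge libraries are at 0, with an adjusted p of 5.68e-06 to 0.387 over 13 alternatives. It passed without a filter on low counts, without central zone replicate 1 (edgeR adjusted p = 0.0339) and without end part replicate 3 (edgeR adjusted p = 0.0252). It was -1.48 for model 23 (SE 0.43, edgeR adjusted p = 0.0737). Over the same alternatives the adjusted p ran from 0.00949 to 0.299 for model 35 and from 0.00613 to 0.422 for model 23. The median over the 11 members was -0.58, against -0.03 for all models.

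Summed levels of each stretch were compared with an exact two-sided permutation test, which with 2 libraries per group cannot give a p below 0.333. The pair summed to 774.1 ± 26.0 CPM in edge libraries and 509.3 ± 144.9 CPM in central ones, and to 484.9 ± 21.3 CPM at the ends and 570.1 ± 17.5 CPM in the middle (SD, n = 2 each). Each of these contrasts had the exact permutation p of 0.333 for n = 2, as did the block. The stretch 18 to 27 summed to 115.2 ± 11.5 CPM in edge libraries and 158.4 ± 59.7 CPM in central ones, a difference within the spread of the central libraries. At the ends it summed to 163.1 ± 46.8 CPM, against 106.6 ± 0.346 CPM in the middle (exact permutation p = 0.333).

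Models with levels like those of model 34 were looked for outside the window, by Euclidean distance of log2(CPM + 1) over the 12 libraries. Such a distance grows with a difference in level even where the course is alike. The nearest lay on contig 74 (bases 507079 to 509091) at a distance of 1.80. It stood at 2446, 3441, 2228 and 1669 CPM over the stages, and likewise peaked at day 2. In contrast to model 34 it had counts at the edge, at 0.934 and 0.900 CPM. The next 4 lay on contigs 37, 95, 7 and 36, at distances of 3.64 to 3.97. Models 30 to 33 were farther from model 34 than these, at 4.99 for model 30, 6.18 for model 33, 7.60 for model 32 and 9.55 for model 31. Across the 4 stages alone, Pearson correlations among models 30 to 34 ran from 0.656 to 0.985 over 10 pairs, which is a description of 4 libraries that share one series.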

How the data were processed

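The deposited file holds expected counts as the authors left them, unscaled, with models in rows and libraries in columns. The submitters' processing notes name HISAT2 2.1.0 together with featureCounts 1.5.1. The sources at hand state neither assembly, annotation and strand setting nor how reads were shared out. Per the labels' protocols, libraries were directional and run paired-end or single-end, without saying which library was run how. Those protocols speak of 2 biological replicates throughout, whereas statoblast stages have 1 library each here.

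Counts were rounded, which moved no library total by more than 0.00408%, and tested over all models with edgeR 4.0.16 in R 4.3.3 (filterByExpr with a minimum of 10, TMM, glmQLFit, glmQLFTest, Benjamini-Hochberg, threshold 0.05). The SE is the absolute log2 change divided by the square root of F. One fit of 4 group means over 8 mature libraries gave the zone tests. A fit over 4 statoblast libraries gave the slope, with the freezer coded as day 0. A fit of 2 groups over 12 libraries gave the statoblast-to-mature calls over all models. DESeq2 1.42.0 served as an alternative, with other scalings, no filter, each library left out and a replicate block. CPM refers to library totals. TMM factors were 1.21 to 1.35 in statoblast and 0.675 to 1.00 in mature libraries, so ratios of statoblast to mature CPM exceed TMM-scaled ones. Counting intervals are exact (Clopper-Pearson) on pooled counts, and the Wilson interval was used for shares. Scripts were tested on simulated data. Replicates were no duplicates (chi-square per model 42.4 to 73.2). Python 3.11.15, scipy 1.17.1 and matplotlib 3.10.9 were also used.

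The members, stretches and tests were chosen with earlier results of these data known. Described singly were the 12 members highest in statoblasts, the 5 highest in mature colonies, up to 3 calls per direction and comparison, and the 5 most similar models. Models 1, 28, 29, 21 and 22 were named after their values were seen. Identifiers are printed for 4 members and the rest are numbered.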

Additional observations from a re-analysis of the deposited data

How the results depend on the processing

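No sign turned under the alternatives for the edge changes of models 34 to 36, the end changes of models 20, 23, 25, 27 and 34, the differences of models 20, 23, 25 and 34 to 36, the slopes of models 18, 19, 27 and 30 to 34, or the summed window. Ratios between stages, distances and the changes of other members were not recomputed. Over all models the balance at the edge did turn, at 908 higher and 3882 lower with library totals against 2311 and 1979. Leaving out 1 library gave 0 to 3 calls among members for edge against central zone (3 with all libraries), 0 to 3 for end against middle part (0), 0 to 3 for the difference between dissections (0) and 0 to 4 for the slope (4). The lowest slope count came without the freezer and the lowest edge count without edge zone replicate 2. The call counts of end against middle part became 3 without a filter and 1 with DESeq2, each with 23 members tested. Of all 28161 models these fits called 681 and 307. The member calls of the difference became 1 with library totals, 3 without a filter and 2 with DESeq2. These fits called 1413 of 18085, 2217 of 28161 and 1512 of 28161 models. Over all models the calls ran from 842 to 5100 for the edge (4290), 35 to 1079 for the ends (62), 36 to 2944 for the difference (394) and 4 to 1723 for the slope (999). With the replicate number as a block, 4 members were called for the edge, 0 for the ends and 0 for the difference. Of all 18085 models 4293, 103 and 342 were. Deviations of edge zone and middle part, the only groups sharing numbers 2 and 3, correlated at 0.127 across models, and the labels give no pairing. The log2 ratio of the summed window was 0.41 for edge over central zone and became 0.77 with TMM library sizes. That of day 6 over the freezer was -1.11 and became -0.95 with TMM sizes and -1.38 without model 34. The causes were not tested. A floor of 3 counts limits what 0 counts show, at up to 0.633 CPM in statoblasts.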
